A study of Mus musculus with 120 samples.

Results

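The genes described here are imprinted genes, 35 genes taken from what is known of mouse imprinting and sorted by the parental allele that is known to be read. Of the 23154 genes in each of 2 count tables, 34 of the 35 had a row in both tables, and Mirg, a maternally expressed noncoding RNA that hosts miRNAs, was not analysed here. Of those 34, 20 are known as paternally expressed and 12 as maternally expressed, while Gnas and Inpp5f are imprinted in a way that differs between their transcripts. A filter on low counts left 32 of them for testing among 14403 genes in the embryo table and 32 among 14629 in the cell table. Snrpn and Zim1 did not pass it in embryos, nor Snrpn and Dcn in cells.

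The study profiled the transcriptome and chromatin of the mouse gastrula, and 28 RNA libraries of its 120 samples are used here. Of these, 18 came from embryos of ICR, an outbred mouse strain, taken 6.5 (E6.5), 7.0 (E7.0) or 7.5 (E7.5) days post coitum, with 2 libraries in each of 9 groups. The groups are named Epi and ExE at E6.5, A, P and ExE at E7.0, and A, AM, P and ExE at E7.5. ExE is the extra-embryonic part of the gastrula, and the other groups are the embryonic part, cut at E7.0 and E7.5 into sub-regions whose letters the labels do not spell out. The other 10 came from E14/TG2A, a mouse embryonic stem cell line, either unedited (WT, 2 libraries per day) or with an enhancer named Enh9E removed by CRISPR-Cas9 (KO, 3 libraries per day). These cells were taken undifferentiated (D0) or as neural progenitors after 8 days of differentiation (D8). The labels give no sex, no litter, no position or target gene of Enh9E, and do not say whether replicates were separate embryos, cultures or clones, so the p-values measure only the spread between these libraries. The counts do not separate the parental alleles: they give how much RNA of a gene there was, and imprinting itself was not measured.

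Imprinted genes carry methylation set down differently in egg and sperm, and after fertilization a cell reads mainly the maternal or the paternal copy. Many sit in clusters governed by an imprinting control region, and the maintenance of its methylation in the early embryo rests on zinc finger proteins such as ZFP57, which bind methylated DNA. The family is known above all for growth and for the placenta, where several paternally expressed members promote growth and several maternally expressed members restrain it. For some members, imprinted expression is known only in certain tissues, such as Dcn in the placenta and Copg2 in the brain.

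RefSeq promoter windows of build GRCm38.p6, which reach from 250 bases before a transcript start to 50 bases after it, were at hand for 28 of the 35 genes, in 43 windows. They were searched on both strands for TGCCGC, the hexamer that ZFP57 binds, whose reverse complement is GCGGCA. The hexamer stood in 12 of the 43 windows (27.9%), and in 11.6% of all 32851 windows. The 12 windows belong to 11 of the 28 genes (39.3%), beside 13.1% of all 27025 genes with a window. Among the 12 are overlapping windows of Mest that start at chr6:30737800 and chr6:30737803 and hold the same 2 matches. The median number of CpG pairs was 15 in the members' windows and 7 in all windows. Windows of 6 genes that the results return to are shown, each 5′ to 3′ on the gene's own strand. Where a gene has more than 1 window, the one with the most matches is shown.
Zdbf2, chr1:63200108-63200407, plus strand, with 3 matches in capitals: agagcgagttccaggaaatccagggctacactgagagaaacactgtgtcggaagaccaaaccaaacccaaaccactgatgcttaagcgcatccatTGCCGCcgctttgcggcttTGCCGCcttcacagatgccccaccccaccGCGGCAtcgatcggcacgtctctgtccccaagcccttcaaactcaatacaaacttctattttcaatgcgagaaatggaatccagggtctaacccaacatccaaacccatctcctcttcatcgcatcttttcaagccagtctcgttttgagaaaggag
Nnat, chr2:157559828-157560127, plus strand, with 1 match in capitals: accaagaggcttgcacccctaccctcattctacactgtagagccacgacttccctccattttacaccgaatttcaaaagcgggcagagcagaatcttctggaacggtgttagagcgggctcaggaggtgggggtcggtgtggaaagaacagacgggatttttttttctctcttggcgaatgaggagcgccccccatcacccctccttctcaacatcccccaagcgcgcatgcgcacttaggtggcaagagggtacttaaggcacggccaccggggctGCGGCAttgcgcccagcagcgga
Mest, chr6:30737800-30738099, plus strand, with 2 matches in capitals: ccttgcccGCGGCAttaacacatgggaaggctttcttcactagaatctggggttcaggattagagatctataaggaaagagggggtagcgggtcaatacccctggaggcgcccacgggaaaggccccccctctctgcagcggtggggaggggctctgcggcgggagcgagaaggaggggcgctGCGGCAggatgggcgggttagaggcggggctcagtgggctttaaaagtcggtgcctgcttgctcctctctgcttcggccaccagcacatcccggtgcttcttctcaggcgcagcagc
Meg3, chr12:109540746-109541045, plus strand, with 1 match in capitals: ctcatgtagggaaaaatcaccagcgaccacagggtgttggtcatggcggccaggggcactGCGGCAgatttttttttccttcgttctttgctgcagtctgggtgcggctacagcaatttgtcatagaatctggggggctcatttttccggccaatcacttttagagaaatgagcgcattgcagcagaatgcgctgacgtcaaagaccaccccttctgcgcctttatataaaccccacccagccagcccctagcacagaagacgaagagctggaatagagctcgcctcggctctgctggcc
Phlda2, chr7:143502475-143502774, minus strand, with no match: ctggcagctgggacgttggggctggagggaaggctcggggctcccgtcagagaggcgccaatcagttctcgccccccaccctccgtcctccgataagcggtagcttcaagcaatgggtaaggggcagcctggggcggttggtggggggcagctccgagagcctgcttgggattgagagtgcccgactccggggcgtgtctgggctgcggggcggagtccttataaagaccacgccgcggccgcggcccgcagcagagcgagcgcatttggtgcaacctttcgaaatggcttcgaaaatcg
Peg3, chr7:6730370-6730669, minus strand, with the 263 bases that lie also in the window of Usp29 in capitals: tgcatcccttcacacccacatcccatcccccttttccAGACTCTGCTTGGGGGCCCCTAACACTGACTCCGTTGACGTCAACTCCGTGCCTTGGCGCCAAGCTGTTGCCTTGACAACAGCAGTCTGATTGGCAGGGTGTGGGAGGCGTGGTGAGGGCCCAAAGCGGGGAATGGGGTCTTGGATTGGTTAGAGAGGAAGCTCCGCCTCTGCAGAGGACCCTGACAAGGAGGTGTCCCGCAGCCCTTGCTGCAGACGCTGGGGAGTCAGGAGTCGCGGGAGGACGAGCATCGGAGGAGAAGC
Zdbf2, Nnat and Mest were lower in ExE, Phlda2 was higher there, and Meg3 was nearly absent from 1 pair of KO libraries. Peg3 and Usp29 start back to back on opposite strands and share most of their promoter window, which holds no hexamer. A match of letters is a description and not a bound site.

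Total counts ran from 5.15 to 17.1 M reads per embryo library and from 5.96 to 13.2 M reads per cell library. Values are CPM, the usual depth-scaled count, with library sizes scaled by TMM, and a gene was called higher or lower at an adjusted p under 0.05 in edgeR's quasi-likelihood test (Benjamini-Hochberg over all genes tested). Marker genes of extra-embryonic ectoderm and epiblast separated ExE from Epi at E6.5. The summed level of 10 extra-embryonic ectoderm markers was 854 to 872 CPM in E6.5 ExE and 29 to 39.3 in Epi, and that of 8 epiblast markers 635 to 770.2 and 3786 to 4379.9. At E7.5 the epiblast markers overlapped between ExE, at 381 to 449 CPM, and AM, at 308.5 to 548.5. They were higher in A and P, at 1670 to 2830 and 708 to 1566. The extra-embryonic ectoderm markers were at 458 to 673 in E7.5 ExE and 48.7 to 67.3 in AM. Visceral endoderm, the layer that wraps both parts, was measured in most libraries but little in E7.5 A: its 10 markers summed to 5058 to 7284 CPM in E6.5 ExE and 3243 to 5495 in Epi, and to 13455 to 16411 in E7.5 ExE against 11.9 to 555 in A. In cells, 8 naive pluripotency markers fell from 6296 to 6729 CPM in WT D0 to 60.9 to 129 in WT D8, and 8 neural progenitor markers stood at 42.8 to 43.8 and 1161 to 1407. Both KO libraries numbered 3 stand apart in several imprinted genes, and the members whose calls changed without them are named. Members were split over 9 chromosomes with 15 on chromosome 7, and 18 overlap another counted gene. Whether counting used strand was not given in the sources used here, and reads of overlapping pairs such as Mest and Copg2, Meg3 and Rtl1, Igf2r and Airn, or Nnat and Blcap cannot be told apart.

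At E6.5, 6 members were higher in ExE than in Epi and 7 were lower, of 32 tested, where 3.69% and 5.24% of all genes were. At E7.0, 8 were higher in ExE than in the mean of A and P and 8 lower, beside 10% and 8.14% of all genes. At E7.5, 5 were higher in ExE than in the mean of A, AM and P and 5 lower, beside 13.4% and 7.91%. Igf2, Sfmbt2, Cdkn1c and Phlda2 were higher at all 3 stages, and Nnat, Grb10, Magel2 and Zdbf2 were lower at all 3. No member was higher at one stage and lower at another, and 15 of the 32 passed at none. Because each part is a mixture, fewer cells of a type and less RNA per cell cannot be told apart. Among the 19 paternally expressed members tested at E7.0, 3 rose and 5 fell, with a median log2 difference of -1.15, and among the 11 maternally expressed members 5 rose and 2 fell, with a median of 0.57. The median over all genes was -0.04. At E6.5 the corresponding medians were -0.82, 0.12 and 0.03, and at E7.5 -0.48, 0.34 and -0.02. The 2 allele groups were not tested against each other.

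**Figure D1:**
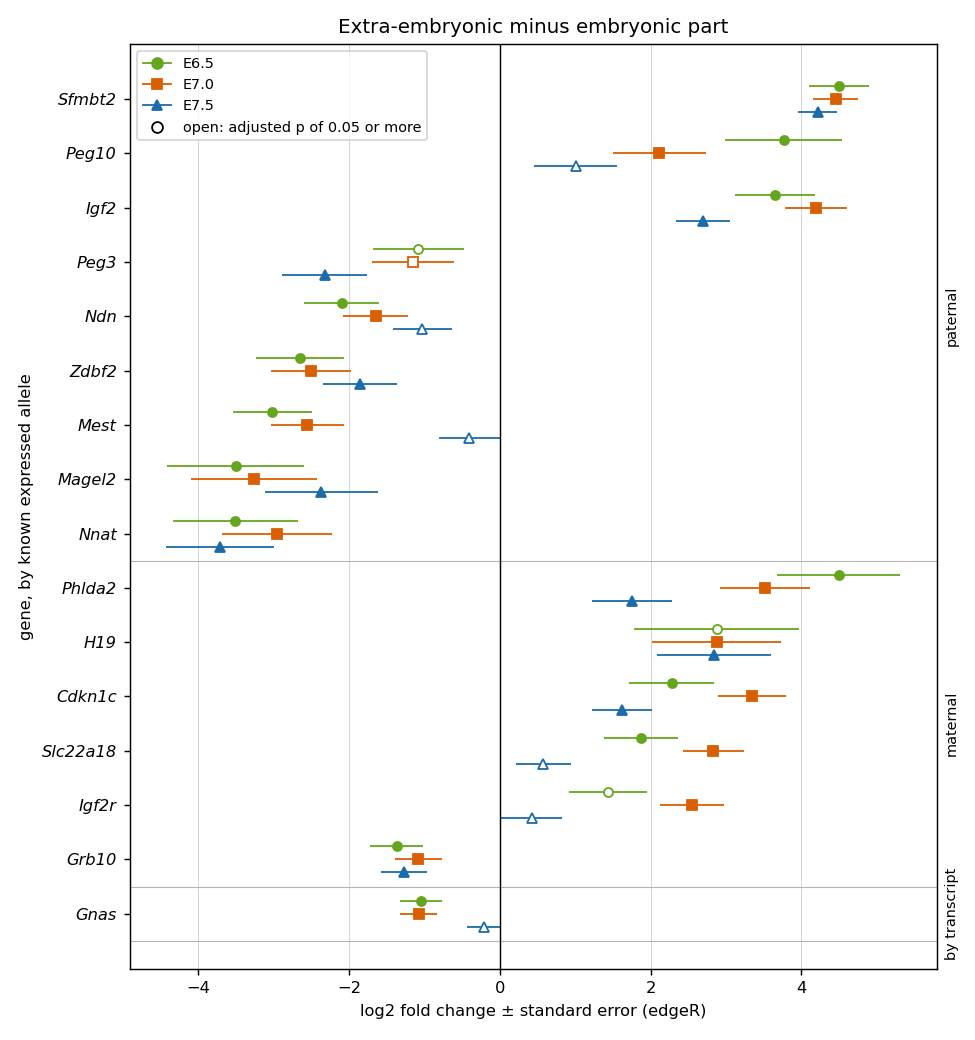
Log2 fold change between the extra-embryonic and the embryonic part at E6.5, E7.0 and E7.5, with standard errors from edgeR, for each imprinted gene called at one stage or more except Dcn, which had no count in E7.0 ExE. Filled symbols mark an adjusted p under 0.05. Sfmbt2, Igf2, Cdkn1c and Phlda2 lie to the right of 0 and Nnat, Magel2, Zdbf2 and Grb10 to the left at all 3 stages.

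Igf2 encodes the fetal growth factor IGF2 and lies at chr7:142650768-142666816. It was at 161 and 149.7 CPM in the 2 E6.5 ExE libraries and at 8.1 and 16.6 in Epi. At E7.0 it was at 99.4 and 237 CPM in ExE and at 5.98 to 15.6 in the 4 embryonic libraries, and at E7.5 at 195 and 125 CPM in ExE and at 12.3 to 65.9 in the 6 embryonic ones. All 6 ExE libraries lay above all 12 embryonic ones. The log2 difference was 3.65 ± 0.53 (adjusted p = 0.000353) at E6.5, 4.19 ± 0.41 (adjusted p = 8.19e-06) at E7.0 and 2.70 ± 0.35 (adjusted p = 7.65e-05) at E7.5. Within the embryonic part at E7.5, both AM libraries, at 36.7 and 65.9 CPM, lay above those of A and P, but AM minus A missed the threshold (1.62 ± 0.49, adjusted p = 0.119).

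H19, the maternally expressed noncoding RNA next to Igf2 (chr7:142575530-142578146), moved the same way with a wider spread. It was at 1665 and 2218 CPM in E6.5 ExE and 158 and 372 in Epi, then at 946 and 878 in E7.0 ExE and 51.8 to 195 in A and P. At E7.5 it was at 1955 and 1843 CPM in ExE, while single embryonic libraries ranged from 36.1 to 824. ExE did not overlap the embryonic part at any stage. The difference passed at E7.0, at 2.87 ± 0.86 (adjusted p = 0.0382), and at E7.5, at 2.84 ± 0.76 (adjusted p = 0.0202), and not at E6.5, where it was 2.87 ± 1.10 (adjusted p = 0.133). In each of the A, AM and P groups replicate 2 was the higher library. The E7.0 call was lost without A replicate 1, without either ExE library or without either P library, and the E7.5 call without AM replicate 1 or either ExE library.

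Igf2r encodes the receptor that clears IGF2 (chr17:12682406-12769706). It was at 72.8 and 327 CPM in the 2 E7.0 ExE libraries and at 28.5 to 44.5 in A and P, a difference of 2.54 ± 0.42 (adjusted p = 0.00081). Replicate 2 alone held the high value, and the call was lost without it. At E6.5 Igf2r stood at 66.1 and 82.1 CPM in ExE and 21 and 33.7 in Epi (1.44 ± 0.52, adjusted p = 0.0964), and at E7.5 ExE and the embryonic part overlapped (0.42 ± 0.41, adjusted p = 0.503).

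The Kcnq1 cluster on chromosome 7 holds the maternally expressed Cdkn1c, Phlda2, Slc22a18 and Cd81 and the paternally expressed antisense RNA Kcnq1ot1. Phlda2, known to restrain placental growth (chr7:143501545-143503145), was at 456 and 410.5 CPM in E6.5 ExE and 19.3 and 19.2 in Epi, a log2 difference of 4.49 ± 0.82 (adjusted p = 0.00294). At E7.0 it was at 1325 and 956 CPM in ExE and 42.9 to 213 in A and P (3.52 ± 0.60, adjusted p = 0.00122). Neither stage showed overlap between the parts, although the E6.5 call was lost without Epi replicate 1. By E7.5 ExE stood at 2358 and 3488 CPM, but the embryonic part had reached 294 and 418 in A, 322 and 1386 in AM and 975 and 3302 in P, so that P replicate 2 overlapped ExE. The E7.5 difference was 1.76 ± 0.53 (adjusted p = 0.0286), and the call was lost without A replicate 1, P replicate 1 or either ExE library.

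Cdkn1c, an inhibitor of cyclin-dependent kinases (chr7:143458339-143461059), was at 42.4 and 23.9 CPM in E6.5 ExE and 6.96 and 6.73 in Epi, a difference of 2.28 ± 0.56 (adjusted p = 0.0171). At E7.0 ExE held 42.2 and 76.8 CPM against 4.86 to 6.94 in A and P, the widest gap of the 3 stages at 3.35 ± 0.45 (adjusted p = 0.000128). At E7.5 AM replicate 1, at 16.7 to 49.3 CPM over the 2 AM libraries, reached the range of ExE (44.3 and 60.0), and the difference was 1.62 ± 0.40 (adjusted p = 0.00883). That call was lost without ExE replicate 2 and under scaling by total counts. Slc22a18, an organic cation transporter (chr7:143473726-143499334), was higher in ExE at E6.5, by 1.87 ± 0.49 (adjusted p = 0.0245), and at E7.0, by 2.83 ± 0.40 (adjusted p = 0.000212). At E7.5 its levels were 11 and 11.4 CPM in ExE and 4.81 to 10.2 in the embryonic part, and the difference of 0.58 ± 0.36 did not pass (adjusted p = 0.279). The 2 other genes of the cluster passed at no stage: at E6.5 Cd81, a tetraspanin, was at 80.6 and 68.5 CPM in ExE and 137 and 127 in Epi (-0.82 ± 0.27, adjusted p = 0.0652), and Kcnq1ot1 at 157 and 146 and 84.2 and 92.6 (0.77 ± 0.42, adjusted p = 0.278).

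Sfmbt2, a Polycomb-group gene needed for the trophoblast (chr2:10370440-10595253), gave the smallest p of all members at each stage. It was at 257 and 203 CPM in E6.5 ExE, 158 and 159.8 in E7.0 ExE and 112 and 90.6 in E7.5 ExE. The 12 embryonic libraries held 1.52 to 12 CPM, with the 2 libraries of E7.5 A the lowest, at 1.52 and 2.9. The log2 differences were 4.50 ± 0.40 (adjusted p = 7.01e-06), 4.45 ± 0.30 (adjusted p = 4.49e-07) and 4.21 ± 0.26 (adjusted p = 3.61e-08) at the 3 stages in order. Peg10, a retrotransposon-derived gene needed for the placenta (chr6:4747306-4760517), was at 38.4 and 14.5 CPM in E6.5 ExE and 1.6 and 2.28 in Epi, with a difference of 3.76 ± 0.77 (adjusted p = 0.00543). At E7.0 ExE held 5.57 and 5.76 CPM and the embryonic part 0.532 to 2.03 (2.11 ± 0.61, adjusted p = 0.0256), and at E7.5 the parts overlapped (1.01 ± 0.55, adjusted p = 0.21). Sgce, an epsilon-sarcoglycan gene that starts beside Peg10 and is read from the other strand, did not follow it: at E6.5 it was at 13.2 and 11.7 CPM in ExE and 12.4 and 11.8 in Epi (0.04 ± 0.36, adjusted p = 0.967).

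**Figure D2:**
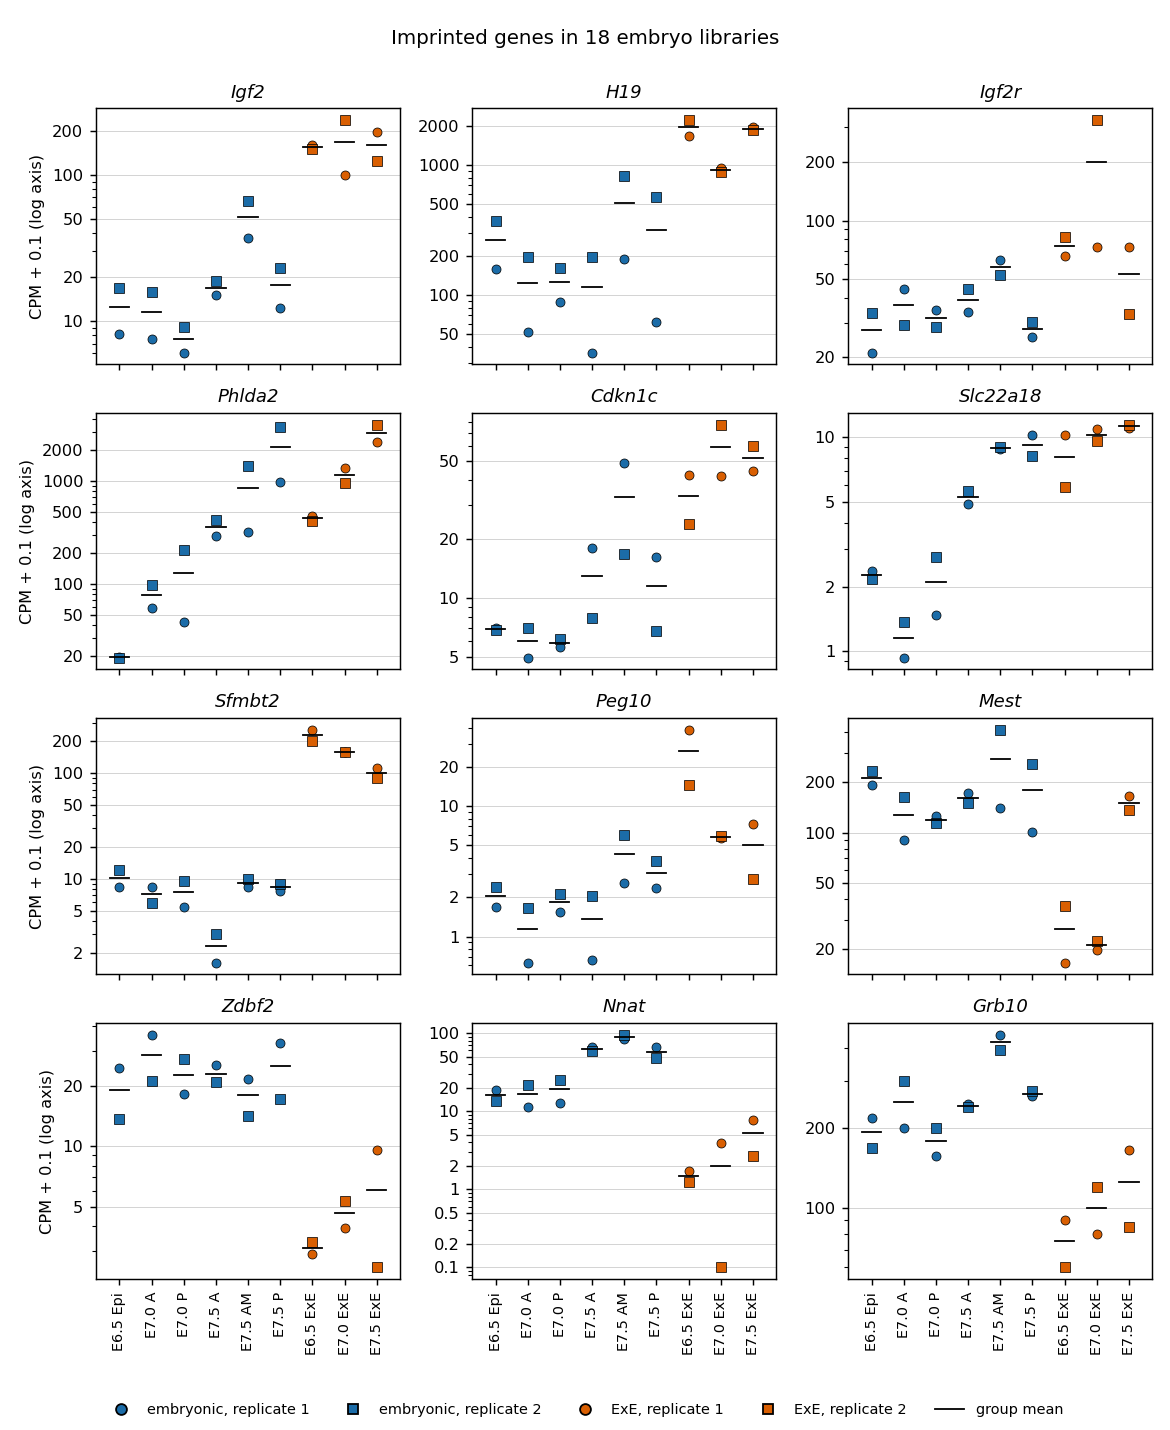
CPM + 0.1 on a log axis for 12 imprinted genes in the 18 embryo libraries. Each point is a library, blue for the embryonic part and orange for ExE, with the replicate shown by its shape and the group mean by a line. Igf2 and Sfmbt2 are higher in all 6 ExE libraries than in the 12 embryonic ones, Nnat and Zdbf2 are lower, and Mest in ExE climbs from E7.0 to E7.5.

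Of the members lower in ExE, 5 of 7 at E6.5, 5 of 8 at E7.0 and 4 of 5 at E7.5 are paternally expressed. Among all 32 tested, 19 are, and among the members higher in ExE 3 of 6, 3 of 8 and 2 of 5 are. Mest, named for its expression in mesoderm (chr6:30733506-30748466), was at 16.5 and 36.2 CPM in E6.5 ExE and 193 and 233 in Epi, and at 19.7 and 22.3 in E7.0 ExE against 90.8 to 163 in A and P. It fell by 3.02 ± 0.53 (adjusted p = 0.00165) at E6.5 and by 2.56 ± 0.48 (adjusted p = 0.00208) at E7.0 on the log2 scale. At E7.5 ExE held 167 and 136 CPM and overlapped the embryonic part, which held 101 to 413 (-0.41 ± 0.41, adjusted p = 0.519). Copg2, a coatomer gene that overlaps the end of Mest, did not pass at any stage and was at 7.2 to 51.7 CPM over the 18 libraries. Zdbf2, a zinc finger gene (chr1:63200358-63314576), was at 2.79 and 3.24, 3.82 and 5.22 and 9.54 and 2.38 CPM in ExE at the 3 stages and at 13.6 to 36 in the 12 embryonic libraries. No ExE library reached the lowest embryonic one. Its log2 differences were -2.66 ± 0.58 (adjusted p = 0.00829), -2.51 ± 0.53 (adjusted p = 0.00413) and -1.86 ± 0.49 (adjusted p = 0.0126).

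Nnat, which encodes neuronatin, a small membrane protein of brain and endocrine cells (chr2:157560078-157562525), was at 1.62 and 1.13 CPM in E6.5 ExE, 3.77 and 0 in E7.0 ExE and 7.71 and 2.58 in E7.5 ExE. The embryonic libraries held 18.7 and 13.4 CPM in Epi, 11.3 to 25.2 at E7.0 and 47.2 to 94.8 at E7.5. All 6 ExE libraries lay below all 12 embryonic ones, with differences of -3.51 ± 0.83 (adjusted p = 0.0156), -2.96 ± 0.72 (adjusted p = 0.012) and -3.71 ± 0.72 (adjusted p = 0.0024). The promoter windows of Nnat, Zdbf2 and Mest printed above hold the hexamer, as does 1 of 2 windows of Grb10. Zdbf2 and Mest each have a further window without it, with 38 and 8 CpG pairs. No window of Magel2, Ndn, Peg3 or Gnas, also called lower in ExE, holds the hexamer. Igf2, which was higher in ExE at all 3 stages, also has the hexamer, in 1 of its 4 windows. No window of Phlda2, Sfmbt2, Igf2r or Slc22a18, also called higher there, holds it. H19, Peg10, Cdkn1c and Dcn, called in ExE as well, had no window at hand. Whether the hexamer went with the direction of a call was not tested.

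Ndn and Magel2, MAGE-family genes of the Prader-Willi cluster on chromosome 7, lie less than 1 Mb from Mkrn3. Magel2 (chr7:62376979-62381640) was at 0.809 and 0.282 CPM in E6.5 ExE and 5.82 and 7.43 in Epi, with differences of -3.50 ± 0.91 (adjusted p = 0.0232), -3.27 ± 0.84 (adjusted p = 0.0131) at E7.0 and -2.37 ± 0.75 (adjusted p = 0.0324) at E7.5. Ndn, which encodes necdin (chr7:62348277-62349928), was at 2.7 and 3.66 CPM in E6.5 ExE and 14.4 and 12.7 in Epi, a difference of -2.10 ± 0.50 (adjusted p = 0.0134). It also fell at E7.0, by 1.65 ± 0.43 (adjusted p = 0.0157), and not at E7.5 (-1.03 ± 0.39, adjusted p = 0.0688), where ExE still lay below, at 20.9 and 18.4 CPM against 23.8 to 56.4. Mkrn3, a makorin ring finger gene, passed at no stage and was at 0 to 4 CPM over the 18 libraries. Snrpn, the spliceosomal gene of the same cluster, was at 0 to 0.283 CPM. It shares its transcript with Snurf, and reads of the 2 cannot be told apart.

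Peg3, a zinc finger gene (chr7:6703892-6730462), passed at E7.5, where ExE held 61.7 and 16.6 CPM and the embryonic part 97.4 to 381. The difference was -2.32 ± 0.56 (adjusted p = 0.00896), beside -1.09 ± 0.60 at E6.5 and -1.15 ± 0.54 at E7.0 (adjusted p = 0.3 and 0.153). Usp29, the ubiquitin peptidase gene that shares its promoter window, was at 1.43 and 0.477 CPM in E7.5 ExE and 1.18 to 4.59 in the embryonic part (-1.31 ± 0.73, adjusted p = 0.219). Grb10, a maternally expressed adaptor that restrains growth factor signalling (chr11:11930499-12037428), stood against the other maternally expressed members that passed at all 3 stages. It was at 90.3 and 59.9 CPM in E6.5 ExE and 219 and 169 in Epi, at 79.9 and 121 in E7.0 ExE and 158 to 301 in A and P, and at 166 and 84.9 in E7.5 ExE and 239.9 to 449 in the embryonic part. No ExE library overlapped the embryonic libraries of its stage, and the differences were -1.37 ± 0.35 (adjusted p = 0.0225), -1.08 ± 0.32 (adjusted p = 0.0258) and -1.27 ± 0.31 (adjusted p = 0.00772).

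Gnas, which encodes the stimulatory G protein subunit and is imprinted by transcript (chr2:174284320-174346744), was at 149.9 and 113 CPM in E6.5 ExE and 294 and 250.1 in Epi and fell by 1.05 ± 0.27 (adjusted p = 0.024). At E7.0 it fell by 1.08 ± 0.25 (adjusted p = 0.00672), and at E7.5 the parts overlapped (-0.22 ± 0.22, adjusted p = 0.533). Dcn, the decorin gene (chr10:97479500-97518163), had no count in either E7.0 ExE library and 6.23 and 4.39 CPM in A and 1.61 and 0.761 in P. Taking 3 counts over both ExE libraries as the limit, its level was at least 25.8-fold lower in ExE (adjusted p = 0.00794), a limit that covers counting error only.

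The Dlk1-Dio3 cluster on chromosome 12 was not called between the parts at any stage. Meg3, its maternally expressed noncoding RNA (chr12:109540996-109571729), was at 82.7 to 249.9 CPM in the 6 ExE libraries and 79.9 to 179 in the 12 embryonic ones, with differences of 0.00 ± 0.40, 0.57 ± 0.34 and -0.15 ± 0.33. Rian, a noncoding RNA that hosts snoRNAs (chr12:109603945-109661716), was at 17.5 to 42.2 and 9.47 to 59.4 CPM. Dlk1, a ligand of the Notch family (chr12:109452485-109463336), was at 0 to 4.86 CPM over the 18 embryo libraries, and at E7.5 both ExE libraries, at 4.69 and 4.86 CPM, lay above the 6 embryonic ones (2.38 ± 0.93, adjusted p = 0.0778). Rtl1, a retrotransposon-derived gene of the cluster, was at 0 to 4.3 CPM.

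Of the remaining members, which passed at no stage, Plagl1, a zinc finger factor, was at 0.0899 to 2.62 CPM in ExE and 0.228 to 9.92 in the embryonic part. Zrsr1, which encodes a splicing factor-like protein, was at 0.72 to 8.72 CPM in ExE and 2.56 to 10.6 in the embryonic part. Nap1l5, of the nucleosome assembly protein family, was at 0 to 2.26 CPM over the 18 libraries, with no count in E6.5 ExE, and Inpp5f, a phosphatase gene, at 37.1 to 64.9. In all of them ExE overlapped the embryonic part when the 3 stages were pooled. Within single stages some lay apart without passing. Inpp5f was at 64.9 and 56.2 CPM in E6.5 ExE and 48.6 and 42.5 in Epi. Zrsr1 was at 2.46 and 0.72 in E7.0 ExE and 4.19 to 5.38 in A and P. Nap1l5 lay lower in ExE at E6.5 and E7.5. Impact, a regulator of translation, differed by 0.06 ± 0.42, 0.46 ± 0.36 and 0.84 ± 0.33 (adjusted p = 0.959, 0.383 and 0.0758).

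At E7.5 the visceral endoderm markers moved with the contrast: they summed to 13455 to 16411 CPM in ExE, 1298 to 6968 in AM and 502 to 6365 in P. At E7.0 they summed to 4901 to 6797 CPM in ExE, 1452 to 3232 in A and 1546 to 3449 in P. Ectoplacental cone and giant cell markers summed to 155 to 592 CPM in E7.5 ExE and 12.1 to 19.6 in A. In AM they summed to 17.3 to 59.9 and in P to 15.7 to 57.5. The 7 extra-embryonic mesoderm markers summed to 134 to 164 CPM in E7.5 ExE, 15.2 to 18.8 in A, 25.6 to 64.5 in AM and 23.6 to 49.3 in P. The 8 blood and vessel markers summed to 115 to 165 CPM in E7.5 ExE, 14.2 to 16.8 in A, 21.4 to 51.5 in AM and 6.13 to 22 in P. Of the 6 tested, 5 were higher in ExE, beside 13.4% of all genes. None of the visceral endoderm, blood and vessel or extra-embryonic mesoderm markers was at 0 in E7.5 ExE, where 1 to 2 of the 8 ectoplacental cone and giant cell markers were. Their part in the levels of Igf2, H19, Phlda2 and the other members was not tested. With 2 libraries per group, single libraries mattered. The count of 13 members at E6.5 became 3 without Epi replicate 1, 7 without Epi replicate 2, 4 without ExE replicate 1 and 7 without ExE replicate 2, and the count of 10 at E7.5 became 2 without ExE replicate 2. The members that passed without any 1 library were Igf2, Sfmbt2 and Mest at E6.5 and Igf2 and Sfmbt2 at E7.5. At E7.0, 10 of the 16 did, the exceptions being H19, Igf2r, Peg10, Grb10, Ndn and Magel2. When libraries were scaled by total counts, 6 rose and 5 fell at E6.5, and 4 rose and 6 fell at E7.5.

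Whether a member's difference between the parts changed from E6.5 to E7.5 was tested as an interaction. No member passed, where 0.16% of all genes had a more positive and 0.0278% a more negative difference at E7.5. By DESeq2 1 member passed, and 4 members had an unadjusted p under 0.05 in edgeR. The count became 1 without E7.5 AM replicate 2 or E7.5 P replicate 2. Mest came closest, with 2.61 ± 0.63 (adjusted p = 0.138), followed by Peg10 at -2.76 ± 0.95 (adjusted p = 0.337) and Phlda2 at -2.74 ± 0.96 (adjusted p = 0.356). Within ExE alone, 3 members were higher at E7.5 than at E6.5 and none was lower, beside 0.93% and 0.0417% of all genes. Ndn rose by 2.64 ± 0.50 (adjusted p = 0.0164), Mest by 2.53 ± 0.52 (adjusted p = 0.0255) and Sgce by 1.64 ± 0.37 (adjusted p = 0.04). All 3 are paternally expressed, as are 19 of the 32 members tested. In each of the 3, the 2 libraries of E7.5 lay above those of E6.5. Mest was at 16.5 and 36.2 CPM at E6.5 and 167 and 136 at E7.5, and Sgce at 13.2 and 11.7 and 32 and 45.8. The summed markers in ExE were at 5058 to 7284 CPM at E6.5 and 13455 to 16411 at E7.5 for visceral endoderm, 32.4 to 36.8 and 115 to 165 for blood and vessel, and 62.5 to 81.4 and 134 to 164 for extra-embryonic mesoderm. Their part in the rise of Ndn, Mest and Sgce was not tested. The count of 3 became 0 without either E6.5 library or without E7.5 replicate 1, and 1 without E7.5 replicate 2.

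In the embryonic part, 3 members were higher in the mean of A, AM and P at E7.5 than in Epi at E6.5 and none was lower, beside 1.07% and 1.56% of all genes. Phlda2 rose by 5.49 ± 0.82 (adjusted p = 0.00244), the largest change of the members in this comparison. Its level was 19.3 and 19.2 CPM in Epi, 42.9 to 213 in the 4 embryonic libraries of E7.0 and 294 to 3302 in the 6 of E7.5. Slc22a18, its neighbour, rose by 1.77 ± 0.43 (adjusted p = 0.0366), with 2.28 and 2.08 CPM in Epi and 4.81 to 10.2 at E7.5. Cdkn1c and Cd81 of the same cluster, at 1.31 ± 0.48 and 0.26 ± 0.22, did not pass (adjusted p = 0.186 and 0.648). Ndn rose by 1.57 ± 0.41 (adjusted p = 0.0482), with 14.4 and 12.7 CPM in Epi and 23.8 to 56.4 at E7.5. The count fell to 0 without either Epi library and to 1 without either A library, AM replicate 2 or P replicate 1. These time comparisons share libraries with the comparisons of parts given above.

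Between embryonic regions few members moved. At E7.0 none differed between P and A, beside 0.00694% of all genes higher and 0% lower. None had an unadjusted p under 0.05 in edgeR, and none passed in DESeq2. At E7.5 Sfmbt2 alone was higher in P than in A, by 1.92 ± 0.38 (adjusted p = 0.0469), and no member was lower, beside 0.201% and 0.0347% of all genes. Its levels were 7.51 and 8.91 CPM in P and 1.52 and 2.9 in A. Without A replicate 1 or either P library the call was lost. In AM, Sfmbt2 was again higher than in A, at 8.3 and 9.84 CPM (2.06 ± 0.38, adjusted p = 0.00938), and Sgce was higher too, at 39.3 and 39.2 CPM against 12.5 and 13.7 (1.59 ± 0.36, adjusted p = 0.0329). No member was lower in AM, and 1.15% of all genes were higher and 0.417% lower. Both comparisons share the A libraries, and the AM count became 0 without AM replicate 2 or A replicate 1, and 1 without AM replicate 1 or A replicate 2. Summed visceral endoderm markers were at 11.9 to 555 CPM in A, with 0 to 3 of 10 at 0, and at 1298 to 6968 in AM, and their part in the Sfmbt2 and Sgce calls was not tested. Magel2 was at 8.85 and 18.1 CPM in A, 1.85 and 4.06 in AM and 4.92 and 3.02 in P, and neither difference passed (-2.18 ± 0.78 and -1.75 ± 0.78, adjusted p = 0.239 and 0.596).

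Among other genes of the same biology, Ascl2, an imprinted regulator of the trophoblast, was higher in ExE by 3.80 ± 0.62 (adjusted p = 0.000965) at E6.5, 5.22 ± 0.51 (adjusted p = 8.05e-06) at E7.0 and 3.54 ± 0.42 (adjusted p = 3.11e-05) at E7.5. Of 39 other imprinted genes tested, 6 rose and 1 fell in ExE against Epi at E6.5, 6 and 3 at E7.0, and 11 and 5 at E7.5. Of all genes, 3.69% rose and 5.24% fell at E6.5, 10% and 8.14% at E7.0, and 13.4% and 7.91% at E7.5. These shares also stand beside the counts of the 2 lists that follow. Of 20 regulators of imprints and DNA methylation, 1 was higher and 3 were lower at E6.5, 1 and 6 at E7.0, and 1 and 3 at E7.5. Dnmt3a, a de novo DNA methyltransferase, fell by 2.31 ± 0.33 (adjusted p = 0.00032) at E6.5. In the IGF axis, 1 of 14 genes tested was higher and 3 were lower at E6.5, 3 and 4 at E7.0, and 1 and 1 at E7.5. Igfbp2, an IGF-binding protein, fell by 5.86 ± 0.47 (adjusted p = 5.12e-06) at E6.5, 3.64 ± 0.39 (adjusted p = 1.79e-05) at E7.0 and 2.62 ± 0.36 (adjusted p = 0.000126) at E7.5, and the change of its difference with stage was 3.24 ± 0.50 (adjusted p = 0.00939). Igfbp5, another, was higher by 3.39 ± 0.67 (adjusted p = 0.00433) at E6.5.

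In WT cells 15 members were higher and 6 lower at D8 than at D0, of 32 tested, where 29.4% of all genes were higher and 27.3% lower. In KO cells 18 were higher and 6 lower, beside 33.4% and 31%. The higher members were mostly paternally expressed. In WT, 11 of 19 such genes rose and 3 fell, while of 11 maternally expressed genes 2 rose and 3 fell. The expressed allele was taken as known for mouse and was not measured in these cells, so it may not hold for each member in them. Grb10, lower in WT, and Igf2r, lower in KO, are counted here as maternally expressed. The median log2 change was 1.93 for the paternally and -0.07 for the maternally expressed members in WT, 2.03 and -0.42 in KO, and 0.02 and 0.05 over all genes. In both genotypes 15 members rose and 4 fell, the latter being Phlda2, Zrsr1, Sfmbt2 and Slc22a18.

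Nnat rose most. It was at 4.28 and 5.64 CPM in WT D0 and 1139 and 2206 in WT D8, and at 6.54, 15.9 and 12.2 in KO D0 and 786, 1147 and 1068 in KO D8. The log2 changes were 8.40 ± 0.51 (adjusted p = 4.09e-07) and 6.42 ± 0.37 (adjusted p = 1.69e-07). Cdkn1c followed, at 7.71 and 4.05 CPM in WT D0, 355 and 440.5 in WT D8, 6.1, 6.1 and 6.84 in KO D0 and 113, 216 and 205 in KO D8, with changes of 6.06 ± 0.38 (adjusted p = 4.95e-07) and 4.80 ± 0.29 (adjusted p = 2.43e-07). In both genes the D8 libraries lay far above every D0 library. Phlda2 and Slc22a18, neighbours of Cdkn1c, went the other way: Phlda2 fell by 4.64 ± 0.73 (adjusted p = 0.000261) in WT and 3.10 ± 0.45 (adjusted p = 0.000114) in KO, and Slc22a18 by 2.16 ± 0.66 (adjusted p = 0.0154) and 2.58 ± 0.47 (adjusted p = 0.000594). Phlda2 at D8 was at 0.113 to 2.7 CPM in 5 libraries, near the limit of counting. Kcnq1ot1 rose by 1.02 ± 0.29 (adjusted p = 0.0107) and 1.90 ± 0.24 (adjusted p = 4.42e-05).

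The Prader-Willi genes rose together. Magel2 was at 1.22 and 0.289 CPM in WT D0 and 18.7 and 23 in WT D8, a change of 4.71 ± 0.46 (adjusted p = 8.49e-06), and in KO by 4.11 ± 0.39 (adjusted p = 4.88e-06). Ndn rose by 3.61 ± 0.32 (adjusted p = 4.02e-06) in WT, with 8.45 and 12.1 CPM at D0 and 117 and 133 at D8, and by 2.62 ± 0.25 (adjusted p = 5.51e-06) in KO. Mkrn3 rose by 1.93 ± 0.27 (adjusted p = 9.53e-05) and 1.93 ± 0.21 (adjusted p = 1.58e-05). Peg3 and Usp29, which share a promoter window, also both rose: Peg3 by 3.30 ± 0.43 (adjusted p = 7.01e-05) in WT, and in KO (adjusted p = 2.25e-05) with a change that differed from that in WT by -0.30 ± 0.52 (adjusted p = 0.746), and Usp29 by 3.55 ± 0.39 (adjusted p = 1.85e-05) and 3.31 ± 0.34 (adjusted p = 8.18e-06). Peg3 was at 31.4 to 38.8 CPM in the 5 D0 libraries and 119 to 411 in the 5 D8 libraries. Zim1, a maternally expressed zinc finger gene of the same cluster, was at 0.289 to 2.23 CPM over the 10 libraries and did not pass in either genotype (adjusted p = 0.859 and 0.311).

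Sgce rose by 3.56 ± 0.23 (adjusted p = 5.28e-07) in WT and 2.81 ± 0.17 (adjusted p = 2.44e-07) in KO, with 6.51 to 20.1 CPM in the D0 and 83.1 to 129 in the D8 libraries, while Peg10 beside it did not pass (0.88 ± 0.43 and 0.54 ± 0.35, adjusted p = 0.0996 and 0.192). Mest was at 61.2 and 120.0 CPM in WT D0 and 602 and 647 in WT D8, and at 66.8, 68 and 63 in KO D0 and 1246, 519 and 683 in KO D8. It rose by 2.79 ± 0.39 (adjusted p = 0.000114) and 3.63 ± 0.33 (adjusted p = 3.61e-06), and Copg2, which overlaps it, by 0.88 ± 0.15 (adjusted p = 0.000528) and 0.81 ± 0.12 (adjusted p = 0.000176). Nap1l5 rose by 2.91 ± 0.41 (adjusted p = 0.000113) and 2.03 ± 0.33 (adjusted p = 0.000262). The 2 genes imprinted by transcript rose as well, Gnas by 2.06 ± 0.17 (adjusted p = 2.22e-06) and 1.51 ± 0.13 (adjusted p = 2.7e-06) and Inpp5f by 1.34 ± 0.14 (adjusted p = 1.6e-05) and 0.65 ± 0.12 (adjusted p = 0.000504).

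Fewer members fell. Zrsr1 fell by 1.01 ± 0.19 (adjusted p = 0.000747) in WT and 0.80 ± 0.15 (adjusted p = 0.000658) in KO, and Sfmbt2 by 1.49 ± 0.38 (adjusted p = 0.00587) and 1.10 ± 0.30 (adjusted p = 0.00738). Grb10 fell in WT, from 80.2 and 59.7 to 34.9 and 17.9 CPM (-1.42 ± 0.43, adjusted p = 0.0156), and did not pass in KO (-0.42 ± 0.34, adjusted p = 0.29). Igf2r fell in KO by 1.06 ± 0.21 (adjusted p = 0.00109) and Cd81 by 0.55 ± 0.13 (adjusted p = 0.00378), whereas neither passed in WT (-0.07 ± 0.26 and -0.34 ± 0.16). For Igf2r, Grb10 and Cd81 the difference between the genotypes did not pass (adjusted p = 0.0957, 0.271 and 0.565). Plagl1 and Zdbf2 passed in neither genotype (0.65 ± 0.38 and 0.24 ± 0.21 in WT). Snrpn and Dcn, which were not tested, were at 0 to 0.499 and 0 to 0.799 CPM over the 10 libraries. In WT the calls of Grb10, Slc22a18, Sfmbt2 and Kcnq1ot1 were lost without 1 library: Grb10 without WT D0 replicate 1 or WT D8 replicate 2, Slc22a18 without WT D0 replicate 2 or WT D8 replicate 1, Sfmbt2 without WT D8 replicate 1 and Kcnq1ot1 without WT D0 replicate 2.

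Igf2 was at 37 and 5.79 CPM in WT D0 and 79 and 47.9 in WT D8, and at 23.8, 27.6 and 22 in KO D0 and 70.4, 43.2 and 143 in KO D8. It rose in KO by 1.81 ± 0.54 (adjusted p = 0.0119), a call lost without KO D8 replicate 1 or 3 and without both KO libraries numbered 3, and by 1.55 ± 0.67 (adjusted p = 0.0658) in WT, which did not pass. H19 did not follow it: at D8 it was at 12.6 and 37.1 CPM in WT and 5.79, 7.29 and 0.399 in KO, and the change from D0 was -0.08 ± 0.88 and 0.25 ± 0.83 (adjusted p = 0.948 and 0.806).

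The Dlk1-Dio3 cluster split the KO libraries. Meg3 was at 191 and 202 CPM in the WT D0 libraries and at 176, 128 and 0.769 in KO D0 replicates 1, 2 and 3, then at 473 and 845 in WT D8 and 646, 669 and 2.79 in KO D8. Rian was at 146 and 186 CPM in WT D0 and 168, 147 and 1.08 in KO D0, and at 243 and 478 in WT D8 and 483, 369.8 and 9.28 in KO D8. In both genes replicate 3 of KO lay far below every other library at both days. Rtl1, a retrotransposon-derived gene antisense to the maternal RNAs (chr12:109564900-109604418), had no count in KO D0 replicate 3, and was at 8.31, 3.99 and 3.09 CPM in KO D8. Dlk1 was at 8.48, 8.25 and 3.54 CPM in KO D0 and 97.3, 205 and 308 in KO D8, with replicate 3 the lowest at D0 and the highest at D8. H19 was also lowest in the KO libraries numbered 3, at 4.61, 6.56 and 0.615 CPM in KO D0 and 5.79, 7.29 and 0.399 in KO D8 against 25.9 and 26.8 in WT D0.

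**Figure D3:**
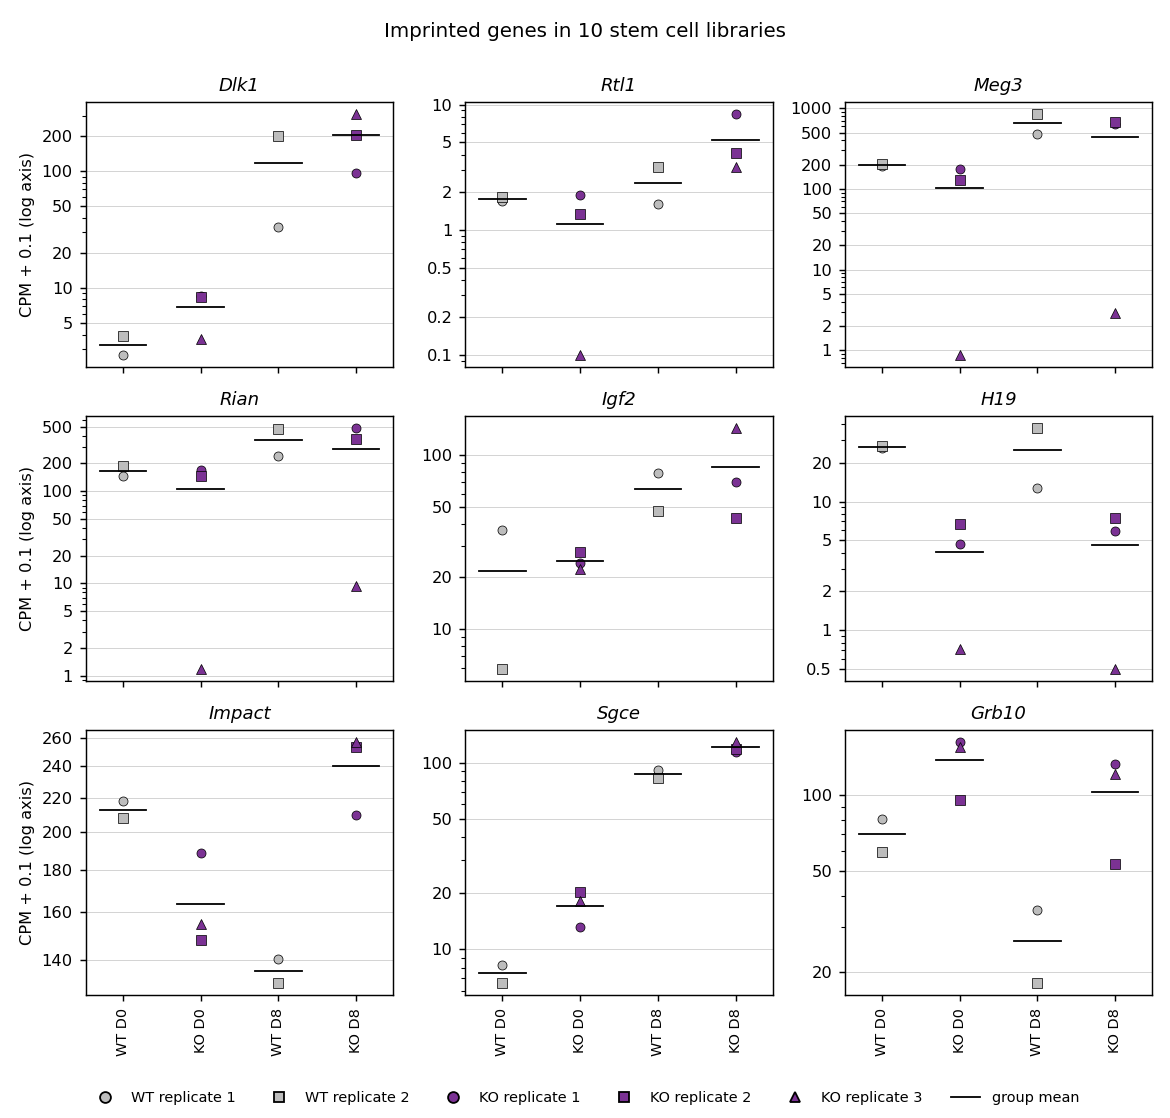
CPM + 0.1 on a log axis for 9 imprinted genes in the 10 cell libraries. Each point is a library, grey for WT and purple for KO, with the replicate shown by its shape and the group mean by a line. Meg3, Rian and H19 are lowest in the triangles, replicate 3 of KO, at both days.

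Over all 10 libraries, Meg3 and Rian passed in no comparison, with a change from D0 to D8 of 1.75 ± 2.08 and 1.12 ± 1.83 in WT (adjusted p = 0.505 and 0.63). With both KO libraries numbered 3 left out, a choice made after seeing the data, the same changes were 1.75 ± 0.28 (adjusted p = 0.000983) for Meg3 and 1.12 ± 0.31 (adjusted p = 0.014) for Rian in WT, and 2.11 ± 0.29 (adjusted p = 0.000507) and 1.44 ± 0.31 (adjusted p = 0.00532) in KO. Both then rose with differentiation in both genotypes. Without those libraries the difference between KO and WT in Meg3 was -0.37 ± 0.28 (adjusted p = 0.783) at D0 and 0.00 ± 0.28 (adjusted p = 0.994) at D8. Dlk1 rose by 5.22 ± 0.88 (adjusted p = 0.000421) in WT and 4.96 ± 0.67 (adjusted p = 6.91e-05) in KO over all libraries, and in KO by 4.18 ± 0.76 (adjusted p = 0.00222) without the libraries numbered 3. Rtl1 rose in KO by 2.47 ± 0.80 (adjusted p = 0.0176) over all libraries and by 2.02 ± 0.57 (adjusted p = 0.0168) without them. In KO the calls of Sfmbt2, Igf2 and Impact from D0 to D8 were lost without them, with Sfmbt2 at -1.12 ± 0.42 (adjusted p = 0.0527) and Igf2 at 1.14 ± 0.63 (adjusted p = 0.16). Whether replicates 3 of the 2 days come from a common clone is not stated in the labels.

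At D0 Sgce was the single member that differed between KO and WT, beside 0.157% of all genes higher in KO and 0.0889% lower. It was at 13.1, 20.1 and 18.1 CPM in KO D0 and 8.2 and 6.51 in WT D0, without overlap, and the log2 difference was 1.22 ± 0.21 (adjusted p = 0.0439). Sgce lies on chromosome 6 (chr6:4674350-4747204), where the median log2 difference of the 687 genes tested was 0.29 and 82.5% of them were positive. Chromosome 11, with Grb10 and Zrsr1, had a median of 0.18, and chromosome 14, with no member, one of 0.46. Their part in the result was not tested. The Sgce call was lost without any 1 of KO D0 replicate 2, KO D0 replicate 3 and the 2 WT D0 libraries, and without both KO libraries numbered 3 the difference was 1.18 ± 0.25 (adjusted p = 0.368). H19, at -2.80 ± 0.86, and Nnat, at 1.24 ± 0.41, did not pass (adjusted p = 0.185 and 0.219). Peg10, next to Sgce, was at 330.1, 559 and 423 CPM in KO D0 and 308 and 176 in WT D0 (0.85 ± 0.40, adjusted p = 0.361).

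At D8, 3 members were higher and 8 lower in KO than in WT, of 32 tested, where 10.1% of all genes were higher and 10.4% lower. Of the paternally expressed members 1 rose and 5 fell, although their median was 0.22. The higher ones were Grb10, Phlda2 and Impact. Grb10 was at 133, 53.5 and 121 CPM in KO D8 and 34.9 and 17.9 in WT D8, without overlap (1.97 ± 0.41, adjusted p = 0.00894). Phlda2 was at 0.947, 2.7 and 2.09 CPM in KO and 0.607 and 0.113 in WT, levels at which a few reads decide the value (2.49 ± 0.77, adjusted p = 0.042). The lower members included the Prader-Willi genes Ndn, at 32.1, 61.9 and 58.1 CPM in KO and 117 and 133 in WT (-1.30 ± 0.25, adjusted p = 0.00599), and Magel2, at 9.89, 8.99 and 9.08 in KO and 18.7 and 23 in WT (-1.16 ± 0.32, adjusted p = 0.0264). Mkrn3 of that cluster was at 18.6, 19.4 and 21.3 CPM in KO and 19.6 and 23 in WT and did not pass (-0.11 ± 0.22, adjusted p = 0.758).

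Cdkn1c was at 113, 216 and 205 CPM in KO D8 and 355 and 440.5 in WT D8, a difference of -1.16 ± 0.26 (adjusted p = 0.0115). Usp29 was at 6.21, 4.59 and 6.28 CPM in KO and 14.1 and 11 in WT, a difference of -1.14 ± 0.29 (adjusted p = 0.0202), while Peg3 overlapped between genotypes (-0.44 ± 0.35, adjusted p = 0.391). Plagl1 was at 76.6, 64.2 and 38.7 CPM in KO and 139 and 146 in WT, a difference of -1.25 ± 0.34 (adjusted p = 0.0259). Nap1l5 was lower, at -1.06 ± 0.32 (adjusted p = 0.0394), as were Inpp5f at -0.65 ± 0.13 (adjusted p = 0.00643) and Igf2r at -0.72 ± 0.23 (adjusted p = 0.0495). In all 8 lower members the KO and WT libraries did not overlap. These members were called from the same libraries, so this adds no support to the calls. The share of all genes without overlap is not given here. H19, at 5.79, 7.29 and 0.399 CPM in KO and 12.6 and 37.1 in WT, missed the threshold with all libraries, at -2.47 ± 0.84 (adjusted p = 0.0566), and passed without the KO libraries numbered 3, at -1.93 ± 0.46 (adjusted p = 0.0433).

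Markers differed between the genotypes at D8 too. In KO D8 the 8 neural progenitor markers summed to 603 to 845 CPM and in WT D8 to 1161 to 1407, 6 neuron markers to 189 to 408 and 1031 to 1475, and 6 endoderm markers to 375 to 830.1 and 96.1 to 96.2. Naive pluripotency markers summed to 160 to 257 CPM in KO D8 and 60.9 to 129 in WT D8, and visceral endoderm markers to 43.5 to 64.6 and 15.1 to 15.8. Ectoplacental cone and giant cell and extra-embryonic mesoderm markers were also higher in KO, and primitive streak and mesoderm markers lower. Neither group overlapped the other in these sums. Those of epiblast, extra-embryonic ectoderm, fibroblast, decidua, and blood and vessel markers overlapped. The part of these markers in the 11 member calls was not tested. The count of 11 became 6 without KO D8 replicate 2 or 3, 5 without WT D8 replicate 1 and 4 without WT D8 replicate 2. Impact, Ndn and Inpp5f passed without any 1 library, Grb10 and Cdkn1c were lost without 1 library, WT D8 replicate 2, and the other 6 were each lost without at least 3 of the 4 libraries KO D8 replicates 2 and 3 and WT D8 replicates 1 and 2. With both KO libraries numbered 3 left out, 3 passed, which were Impact, higher by 0.77 ± 0.19 (adjusted p = 0.0469), Ndn, lower at -1.41 ± 0.31 (adjusted p = 0.0345), and H19.

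The change with differentiation differed between genotypes for 1 member, beside 2.16% of all genes with a more positive and 3.1% with a more negative change in KO. Impact, the regulator of translation on chromosome 18 (chr18:12954690-12992950), was at 218 and 208 CPM in WT D0 and 140.3 and 131 in WT D8, but at 188, 148 and 155 in KO D0 and 209.7, 253 and 257 in KO D8. It fell by 0.65 ± 0.17 (adjusted p = 0.00585) in WT and rose by 0.55 ± 0.13 (adjusted p = 0.00375) in KO, and the difference of the 2 changes was 1.20 ± 0.21 (adjusted p = 0.0165). At D8 all 3 KO libraries lay above both WT libraries (0.82 ± 0.15, adjusted p = 0.00545), and at D0 all 3 lay below, without passing (-0.38 ± 0.15, adjusted p = 0.283). The rise in KO did not pass without both KO libraries numbered 3, at 0.46 ± 0.19 (adjusted p = 0.0683). The interaction was lost without KO D0 replicate 3 or any of the 4 WT libraries, and without both KO libraries numbered 3 it was 1.11 ± 0.27 (adjusted p = 0.142). The count of members with such a difference became 6 without KO D8 replicate 1, 3 without KO D8 replicate 2 and 2 without KO D0 replicate 1. Nnat, whose rise was smaller in KO, and Inpp5f came next, at -1.99 ± 0.52 and -0.69 ± 0.18 (adjusted p = 0.0506 and 0.0519).

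Of the 36 other imprinted genes tested in cells, 13 were higher and 10 lower at D8 in WT, beside 29.4% and 27.3% of all genes, and 17 and 10 in KO, beside 33.4% and 31%. Peg12, a paternally expressed gene of the Prader-Willi cluster, rose by 4.25 ± 0.35 (adjusted p = 2.64e-06) and 4.39 ± 0.28 (adjusted p = 3.41e-07). Of the 20 regulators of imprints and DNA methylation, 4 were higher and 12 lower in WT, and 3 and 13 in KO. Trim28, the corepressor that ZFP57 recruits, fell by 2.02 ± 0.17 (adjusted p = 3.45e-06) in WT and 1.82 ± 0.14 (adjusted p = 1.1e-06) in KO, and Zfp57 by 3.61 ± 0.27 (adjusted p = 8.34e-07) in KO. In the IGF axis 7 of 12 genes tested were higher and 1 lower in WT, with Igfbp5, an IGF-binding protein, up by 8.79 ± 0.57 (adjusted p = 5.81e-07). At D8, 2 of the 36 other imprinted genes were higher in KO than in WT and 6 lower, beside 10.1% and 10.4% of all genes, and at D0 none differed.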

How the data were processed

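The authors deposited 2 tables of raw gene counts, one for embryos and one for cells, in which a value is a whole number of reads per gene. Build mm10, BWA, TopHat2 2.0.9 and CASAVA 1.8 appear, with no roles, per the submitters' processing notes. How reads were assigned to genes, with which gene models and whether by strand, was not given in the sources used here. Of the columns for embryos, 6 matched no sample and were not used, and among the genes of the cell table were 27 names turned into dates. Per the labels' protocols, the embryo libraries (carrier RNA, Nextera XT kit) and the cell libraries (Trizol, NEBNext kit) were prepared differently, so the tables were never compared with each other.

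The 18 embryo libraries and the 10 cell libraries were each fitted once, with groups taken from the labels, by edgeR 4.0.16 (R 4.3.3, limma 3.58.1) with TMM scaling, filterByExpr (minimum count 10, minimum total 15) and the robust quasi-likelihood test. The p-values were adjusted by Benjamini-Hochberg over all genes tested, with a threshold of 0.05, and a standard error is the log2 fold change divided by the square root of the F statistic. CPM values use the TMM-scaled library sizes. A limit for a gene with no count uses 3 counts over the group. Each library was counted as its own sample. Replicate libraries differed beyond sampling noise in each of the groups (chi-square per degree of freedom 3.78 to 63.9 in cells and 40.4 to 135 in embryos). This spread does not show that they were separate embryos, cultures or clones. Alternatives were DESeq2 1.42.0, other scalings, other filters, each library left out, a replicate block and fits of the compared groups alone. The calculations were tested on simulated data. Figures were drawn with matplotlib 3.10.9.

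The members, the marker lists and the other gene lists were chosen with earlier results of these data known. In each comparison the members that passed are named, with those members that lie under 1 Mb from one that passed and the 3 with the highest mean levels among those that did not pass. From the other lists, up to 3 genes with the smallest p were eligible. Positions and promoter windows come from RefSeq, GRCm38.p6. The genomic libraries of the series were not analysed here.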

Additional observations from a re-analysis of the deposited data

Results flagged for a closer look

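Impact was the single member whose change from D0 to D8 differed between the genotypes in edgeR by the test of the difference itself. Of all genes, 2.16% had a more positive and 3.1% a more negative change in KO. Among the alternatives the Impact call held in 12 and was lost in 6, including the fit without both KO libraries numbered 3. DESeq2 called more members. It fell by 0.65 ± 0.17 (adjusted p = 0.00585) on the log2 scale in WT and rose by 0.55 ± 0.13 (adjusted p = 0.00375) in KO, and the difference of the 2 changes was 1.20 ± 0.21 (adjusted p = 0.0165) in edgeR's quasi-likelihood test with Benjamini-Hochberg adjustment.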

How the results depend on the processing

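Over all alternatives, 106 calls of members gave 1419 values, of which 1225 kept direction and call, 194 kept direction and no longer passed, and 0 changed direction; 52 calls passed in every alternative run. With 2 or 3 libraries per group, single libraries set many calls. Leaving out each library in turn, the number of members called ranged from 3 to 7 for ExE against Epi at E6.5, 13 to 19 for ExE at E7.0, 2 to 11 for ExE at E7.5, 0 to 1 for the change of that difference with stage, 0 to 0 for P against A at E7.0, 0 to 1 for P against A at E7.5, 0 to 1 for AM against A, 0 to 2 for the embryonic part over time, 0 to 1 for ExE over time, 19 to 21 for WT over differentiation, 23 to 25 for KO, 0 to 1 for KO against WT at D0, 4 to 13 at D8 and 0 to 6 for the difference between the genotypes' changes. Where this left a group with 1 library, that library was assumed to vary like the others.

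With no filter on low counts, 2 members passed for the change of the ExE difference with stage, 3 for P against A at E7.5, 6 for AM against A, 7 for the embryonic part over time and 6 for ExE over time. DESeq2 called 1, 2 (P against A at E7.5), 6 (embryonic part) and 8 (ExE) in those comparisons, 2 for KO against WT at D0 and 5 for the difference between the genotypes' changes. Fitting the compared groups alone gave 0 for P against A, 0 for AM against A, 5 for the embryonic part, 5 for ExE over time, 5 for KO against WT at D0 and 3 at D8. Scaling by total counts gave 0 for P against A at E7.5, 1 for AM against A, 0 for KO against WT at D0 and 3 for the difference between genotypes, and DESeq2's size factors gave 0 for P against A at E7.5. A stricter filter gave 2 for the difference between genotypes. Without both KO libraries numbered 3 the counts were 0 at D0, 3 at D8 and 0 for the difference between genotypes. The causes were not tested.

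With the replicate number as a block (replicate block), 1 member passed for the change of the ExE difference with stage, 0 for KO against WT at D0 and 2 for the difference between genotypes, and other counts stayed within 1.5 times. A replicate block within each genotype, added after seeing the data like the fit without the KO libraries numbered 3, gave 2 for that difference. The numbers are not stated to pair samples. Same-numbered KO libraries of D0 and D8 correlated at -0.04, 0.02 and 0.04 in their deviations from the group means. Embryo groups correlated at -0.1 to 0.56, and most of these values were positive. The highest were 0.56 for AM and P, 0.37 for A and P and 0.36 for AM and A, all at E7.5. E7.0 A and P correlated at 0.32. The main fit had no block. With the replicate block, the number of all genes called went from 1286 to 1805 for ExE at E6.5. It went from 36 to 5 for KO against WT at D0.

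Scaling by total counts moved the median log2 difference of all genes by -0.63 to 0.37. The share of all called genes that were higher went from 41.3% to 63.1% for ExE at E6.5, from 55.2% to 69.6% at E7.0, from 62.9% to 44.5% at E7.5, from 85.2% to 44.4% for the change with stage, from 85.3% to 50.0% for P against A at E7.5, from 40.6% to 68.9% for the embryonic part over time, from 51.9% to 62.4% for WT over differentiation, from 49.0% to 37.8% for KO against WT at D8 and from 41.0% to 27.1% for the difference between genotypes. Members split 8 higher and 7 lower at E7.0, 16 and 5 in WT and 2 and 8 at D8 under that scaling.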
